A study of Homo sapiens with 9 samples.

Results

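PUM2 was profiled by antibody-barcode eCLIP (ABC) in K562 cells, an established human erythroleukemia line, in 3 replicates of a 10plex experiment. The antibody against each RNA-binding protein (RBP) bears its own barcoded oligonucleotide, which is joined to the bound RNA by ligation, and 10 RBPs are thus read from 1 tube of UV-crosslinked lysate. The PUM2 libraries are 3 of the 30 K562 libraries, and the other 27 are those of DDX3, EIF3G, FAM120A, IGF2BP2, LIN28B, PRPF8, RBFOX2, SF3B4 and ZC3H11A in the same 3 tubes. The title of replicate 3 says K562 where its other labels say K563, and both HEK293T samples carry K562 as a characteristic, so the titles were used and the lines checked with markers. The labels give neither a treatment nor an edited gene for these cells and do not say whether the replicates were separate cultures, so the p-values measure the spread between these samples, which may be technical.

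Members were the PUM2 peaks that passed the limits of the study over the complement control (CC), here the reads of the remaining 9 barcodes in that tube. The limits were P below 0.001 and more than 8 times the CC (a log2 fold above 3). By this rule 197 of 711 tested PUM2 peaks were enriched in replicate 1 (27.7%), 430 of 1319 in replicate 2 (32.6%) and 373 of 1289 in replicate 3 (28.9%). Of these, 5, 16 and 29 lay at sites that resemble the ABC adapter and were set aside, which left 192, 414 and 344 peaks, a mean of 317 ± 114 (SD, n = 3). The P was chi-squared at all counts in replicates 1 and 2 and exact at small counts in replicate 3. The shares of the replicates are therefore not directly comparable. With the exact test, 146 and 326 peaks passed in replicates 1 and 2, adapter-like sites included.

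Pumilio proteins bind single-stranded RNA through a row of helical repeats, each of which reads 1 base of a short element that opens with UGUA. In mRNAs the element usually lies in the 3′ untranslated region (UTR), and a bound Pumilio protein recruits the CCR4-NOT deadenylase, which shortens the poly(A) tail and lowers the mRNA. PUM2 is known for targets in cell division and for the noncoding RNA NORAD, which carries many copies of the element.

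PUM2 was the shallowest library of each tube. Its share of the reads of the tube was 0.865%, 0.897% and 1.03% in replicates 1 to 3, and the merged PUM2 peaks held 13667, 18625 and 17176 reads. CLIPper had called 1237, 1902 and 1604 PUM2 peaks, which the authors merged to 938, 1535 and 1284. The smallest peak has 3 reads, and 77.1%, 62.1% and 55.5% of the enriched peaks had exactly 3, so that most calls of a single replicate rest on few molecules. The K562 markers HBG1, HBG2, HBE1, GATA1 and ALAS2 held merged peaks in each of the 3 tubes, while in both HEK293T tubes HBG2 and HBE1 had 1 merged peak each and HBG1, GATA1 and ALAS2 had 0.

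The element is written on the DNA alphabet as TGTANATA, with N for any base. It is shown for the sites of genes that were enriched in all 3 replicates. In UBR4, BHLHE40 and PDCD6 the replicates were enriched at different sites, so the printed site is not shared by all 3. Of the 13 recurring genes with the element at their best site, 12 are printed and SQLE is named only. Each line is GRCh38 sequence of the RNA's strand, 5′ to 3′, with 1 element in capitals. In the NORAD line the other of the 2 elements of its window stands in lower case, next to the one in capitals.
SAMSN1 (chr21:14485274-14485303, minus strand): ttgtctttaagTGTAAATAttttaaaattt
ATP6AP1 (chrX:154436072-154436101, plus strand): tcccaacaaggTGTACATAttctgcgtaga
RFC4 (chr3:186789924-186789953, minus strand): atggggggtttTGTAAATAatgaagttgta
PDLIM4 (chr5:132272268-132272297, plus strand): tgctcggccggTGTAAATAtgtttcaccct
UBR4 (chr1:19074587-19074616, minus strand): atcaaagggccTGTACATAcctaggagcca
BHLHE40 (chr3:4985087-4985116, plus strand): aggtgtaaaatTGTAAATAtttttatctat
PDCD6 (chr5:314637-314666, plus strand): ggggacccagcTGTACATAtgtggataagc
MKNK2 (chr19:2039577-2039606, minus strand): catctcccctcTGTACATAggtcacccgtc
HHEX (chr10:92695531-92695560, plus strand): tgtttataatgTGTATATAgaattgttcac
NORAD (chr20:36048295-36048324, minus strand): actgtatatatTGTATATAtaacggacaaa
MCL1 (chr1:150576664-150576693, minus strand): tttgtaaaaatTGTATATAtttttacagaa
MBNL1 (chr3:152462438-152462467, plus strand): attagccatatTGTATATAtcgtcaagcaa
The free base was A in 4 of these 12 sites, T in 4, C in 4 and G in 0. From the peak centre the printed element lay at -24.7 nt (upstream, SAMSN1) to 15.3 nt (downstream, HHEX), except in PDLIM4, where it lay 51.5 nt downstream.

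The first question was whether PUM2 peaks hold the element more often than peaks of the other RBPs. Each enriched peak was extended by 50 nt on both sides and searched on its strand. The element was in 28 of 192 PUM2 peaks of replicate 1 (14.6%), in 120 of 414 of replicate 2 (29.0%) and in 87 of 344 of replicate 3 (25.3%), a mean of 22.95% ± 7.48 (SD, n = 3). Over the 27 other libraries the share ran from 0.0908% to 3.85% with a mean of 1.42%, and all 27 lay below the lowest PUM2 replicate. The difference of 21.5 percentage points gave p = 0.001 in a two-sided exact permutation of the RBP labels within replicates, the smallest p that the 1000 choices allow, and an adjusted p of 0.00333 over 10 tests. The labels were drawn separately in each replicate, here and below, so that the 3 libraries of an RBP counted as independent. With each RBP kept whole there would be only 10 choices, too few for a p below 0.05. The highest of the other RBPs was FAM120A with 3.56% ± 0.447 (SD, n = 3).

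**Figure D1:**
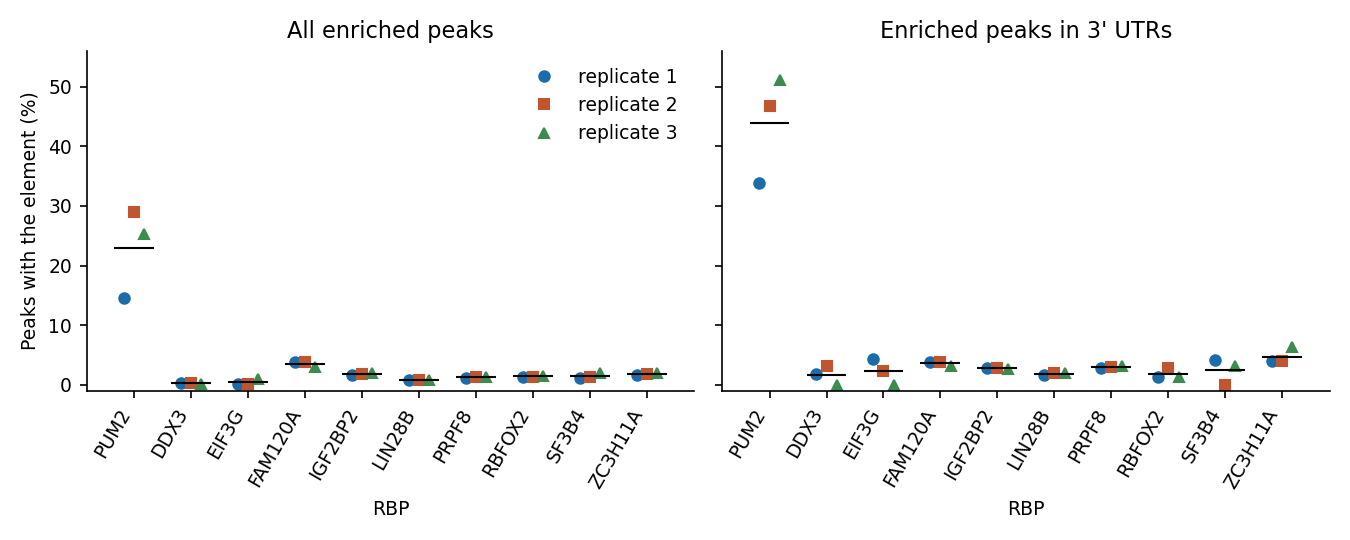
Share of enriched peaks (%) with the Pumilio element within 50 nt, for all enriched peaks (left) and for those in 3′ UTRs (right), by RBP on the x axis. Points are replicates and the lines their mean, and PUM2 lies between 14.6% and 29.0% (left) and between 33.8% and 51.1% (right), above all libraries of the other 9 RBPs.

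Within 3′ UTRs, where the regions of the RBPs no longer differ, the element was in 33.8%, 46.7% and 51.1% of the PUM2 peaks, a mean of 43.9% ± 8.96 (SD, n = 3). The other 27 libraries held it in 0% to 6.28% of their 3′ UTR peaks, with a mean of 2.70%. The exact permutation gave p = 0.001 and adjusted p = 0.00333. ZC3H11A was the highest of them with 4.73% ± 1.34 (SD, n = 3).

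Letters of the element in reverse order, ATANATGT, served as a control of base composition. They were in 2.60%, 3.38% and 3.49% of the PUM2 windows, a mean of 3.16% ± 0.483 (SD, n = 3), against 1.30% in the other libraries (exact permutation, p = 0.002, adjusted p = 0.005). So the reversed letters were also more frequent in PUM2 windows, by 1.85 percentage points, where the element itself was higher by 21.5. FAM120A came near PUM2 in the reversed letters, with 2.86% ± 0.0857 (SD, n = 3). Its 2.89% in replicate 1 was above the PUM2 share, while in replicates 2 and 3 its share was below. The windows of PUM2 held 55.6% ± 3.46 A and T (SD, n = 3) against 49.5% in the others, a difference within the spread of the RBPs (exact permutation, p = 0.235, adjusted p = 0.392). FAM120A windows were richer in A and T, at 61.8% ± 0.822 (SD, n = 3).

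The element was more frequent in the enriched peaks than around them, by values given here with no test. PUM2 peaks that were tested but not enriched held it in 3.51%, 6.88% and 5.70% of windows in replicates 1 to 3. Windows of the same width 500 nt upstream of the enriched peaks held it in 0.521%, 2.17% and 2.03%, and those 500 nt downstream in 2.08%, 4.83% and 2.33%. Of the 192, 414 and 344 enriched peaks, 7, 20 and 22 held more than 1 element.

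The element sat at and just upstream of the peak centre. Its median offset from the centre was -9.5 nt, -10 nt and -5.5 nt in replicates 1 to 3, negative values being upstream, and 71.4%, 71.5% and 61.4% of the elements were upstream. In the pooled peaks of the other 9 RBPs the median offset was 0.750 nt downstream and 49.2% of the elements were upstream. Of the elements in PUM2 windows, 57.1%, 55.6% and 60.5% lay wholly inside the peak, against 33.0% in the other RBPs, whose peaks can differ in width.

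**Figure D2:**
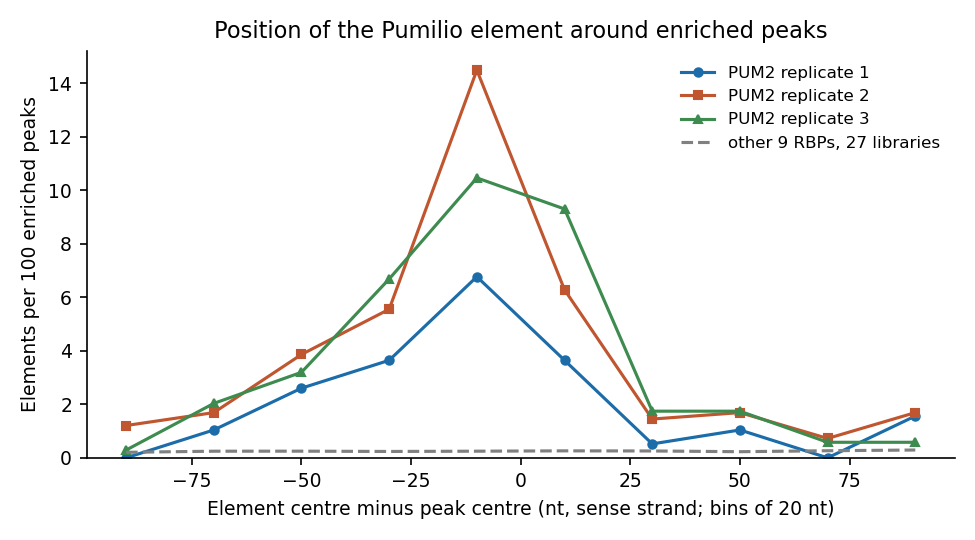
Number of elements per 100 enriched peaks (y axis) by the distance of the element centre from the peak centre in nt on the sense strand (x axis, bins of 20 nt). Lines are the 3 PUM2 replicates and, dashed, the 27 libraries of the other 9 RBPs together, which stay between 0.207 and 0.292 per 100 peaks while PUM2 is highest in the bin just upstream of the centre.

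The free base of the element was A in 34.3%, T in 28.6%, C in 28.6% and G in 8.57% of the 35 elements of replicate 1. In replicate 2, with 144 elements, the shares were 35.4% A, 35.4% T, 25.0% C and 4.17% G. In replicate 3, with 114 elements, they were 35.1% A, 33.3% T, 24.6% C and 7.02% G. G was the rarest base in all 3, and it made up 15.1% of the 2398 elements in windows of the other 9 RBPs. These shares are descriptions, with no test.

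Peaks of more than 3 reads held the element more often than peaks of 3 reads. Among enriched peaks of 3 reads the share was 10.8%, 17.1% and 16.2% in replicates 1 to 3, and among those of 4 to 9 reads it was 23.1%, 43.6% and 37.3%. Peaks of 10 reads or more held it in 3 of 5, 18 of 24 and 9 of 27 cases. The low share of replicate 3 in that class moved with peaks that touch and share their reads and with sites of a barcode and the adapter described below. With touching peaks counted once and those sites left out, it was 3 of 5, 17 of 22 and 9 of 18. The classes of fewer reads were not recounted in this way. None of the barcode sites held the element, so leaving them out can only raise the share. A higher fold did not go with the element: the median log2 fold over the CC was 4.35, 4.31 and 4.70 with the element and 4.73, 4.38 and 5.84 without it. The peaks without it still include the barcode sites, 20 in replicate 2 and 60 in replicate 3, with median log2 folds of 8.37 and 8.16.

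**Figure D3:**
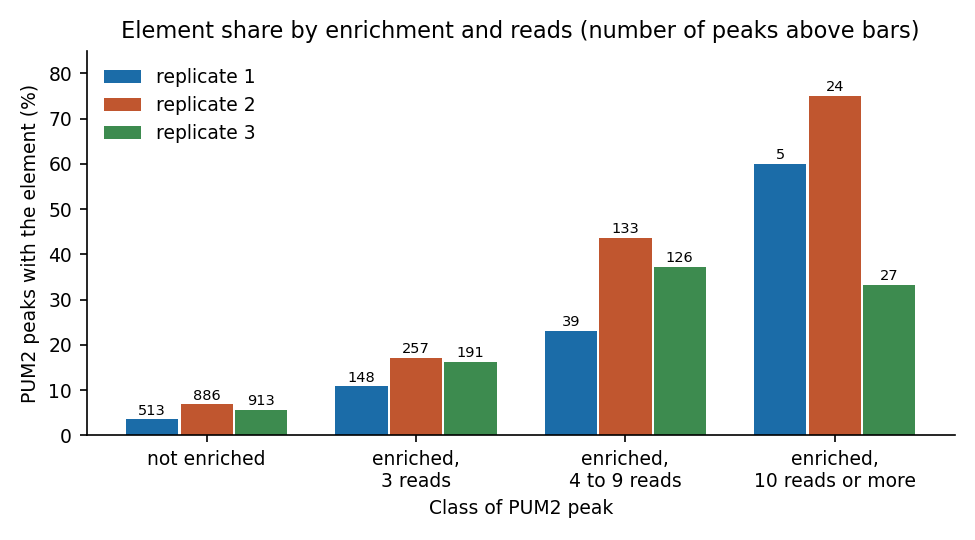
Share of PUM2 peaks (%) with the element by class of peak, with the number of peaks above each bar and bars coloured by replicate. From peaks that were not enriched (3.51% to 6.88%) to enriched peaks of 4 to 9 reads (23.1% to 43.6%) the share rises in every replicate.

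The region of the PUM2 peaks was compared next. In replicates 1 to 3, 35.4%, 54.3% and 40.4% of the enriched PUM2 peaks lay in 3′ UTRs, a mean of 43.4% ± 9.81 (SD, n = 3), against a mean of 22.7% in the other libraries. This difference was within the spread of the RBPs (exact permutation, p = 0.283, adjusted p = 0.404), among which FAM120A had 94.4% ± 0.770 of its peaks in 3′ UTRs and PRPF8 0.646%. PUM2 ranked 3, 2 and 3 among the 10 RBPs in replicates 1 to 3. Coding sequence (CDS) held 44.3%, 25.8% and 15.1% of the PUM2 peaks, and introns 15.1%, 12.3% and 35.5%. Neither share passed the test against the other 9 RBPs (exact permutation, adjusted p = 0.656 for CDS and 0.876 for introns).

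Exons of noncoding genes held 1.56%, 3.86% and 5.23% of the PUM2 peaks, a mean of 3.55% ± 1.85 (SD, n = 3), against 2.11% (exact permutation, p = 0.016, adjusted p = 0.0320). NORAD alone gave 2 of 3, 9 of 16 and 6 of 18 of these peaks. Without replicate 2 the difference was 1.18 percentage points (exact permutation, adjusted p = 0.3), and without replicate 3 it was 0.835 (adjusted p = 0.34), so that this call rests on both replicates. Among the other RBPs, RBFOX2 had the highest share in noncoding exons, 3.31% ± 0.187 (SD, n = 3), close to that of PUM2. PUM2 ranked 6, 1 and 1 among the 10 RBPs in replicates 1 to 3. Along the 3′ UTR, with 0 at the stop codon and 1 at the end of the mRNA, the median PUM2 peak lay at 0.462, 0.377 and 0.380, a mean of 0.406 ± 0.0480 (SD, n = 3), against 0.423 (exact permutation, p = 0.701, adjusted p = 0.779).

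The element followed the regions closely. It was in 23 of 68, 105 of 225 and 71 of 139 peaks of 3′ UTRs. In CDS it was in 4 of 85, 6 of 107 and 5 of 52 peaks, and in introns in 0 of 29, 0 of 51 and 3 of 122. Noncoding exons held it in 1 of 3, 8 of 16 and 8 of 18 peaks. Of the peaks with the element, 82.1%, 87.5% and 81.6% were in 3′ UTRs, against 27.4%, 40.8% and 26.5% of those without.

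**Figure D4:**
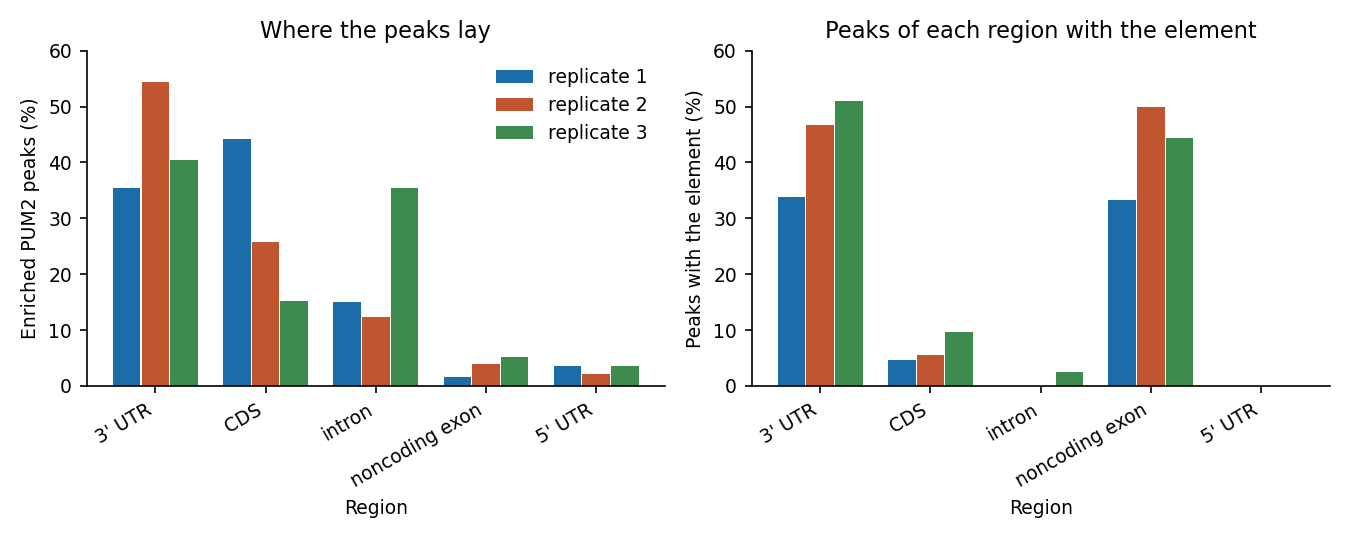
Left, share of enriched PUM2 peaks (%) in each region. Right, share of the peaks of each region (%) that hold the element. Bars are coloured by replicate, and the 3′ UTR and noncoding exons hold the element in 33.3% to 51.1% of their peaks while CDS reaches 9.62%, introns 2.46% and the 5′ UTR 0%. Intergenic and miRNA peaks, at most 4 in a replicate, are not drawn.

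Enriched peaks were next joined to genes to find those that recur. Over the 3 replicates, 613 of 1291 genes with a tested PUM2 peak had an enriched one in at least 1 replicate (47.5%), 106 had one in at least 2 (8.21%) and 21 had one in all 3 (1.63%). The element was in an enriched peak of 110 of the 507 genes seen in 1 replicate (21.7%), of 38 of the 85 seen in 2 (44.7%) and of 14 of the 21 seen in 3 (66.7%). A gene seen in more replicates also has more peaks in which the element can occur, and these shares have no test. Replicates 1 and 2 shared 44 genes, 28.2% of 156 and 13.8% of 320. Replicates 1 and 3 shared 32, 20.5% of 156 and 12.1% of 264. Replicates 2 and 3 shared 72, 22.5% of 320 and 27.3% of 264. The genes in all 3 replicates were 13.5%, 6.56% and 7.95% of the genes of replicates 1 to 3. They were the lowest of the 10 RBPs in each replicate. For ZC3H11A the shares were 15.7%, 6.65% and 15.2%, and for EIF3G, the library nearest to PUM2 in depth, 32.3%, 17.4% and 18.6%.

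By position, that is by runs of overlapping enriched peaks, 758 sites were seen in 1 replicate, 66 in 2 and 16 in all 3, and the element was in 147, 27 and 11 of them. Of the 21 recurring genes, 15 had a site shared by all 3 replicates, and in 6, among them UBR4, BHLHE40, PDCD6, CEBPB and KMT2D, the replicates were enriched at different sites. At 13 of the 15 shared sites none of the other 9 RBPs had an enriched peak in any replicate. The exceptions were NORAD, where FAM120A was enriched, and PITPNB, where LIN28B was. The sites were chosen by PUM2 reads above the pooled reads of the same 9 RBPs, so this count is partly set by the rule. The same share over all enriched PUM2 sites is not given here.

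**Figure D5:**
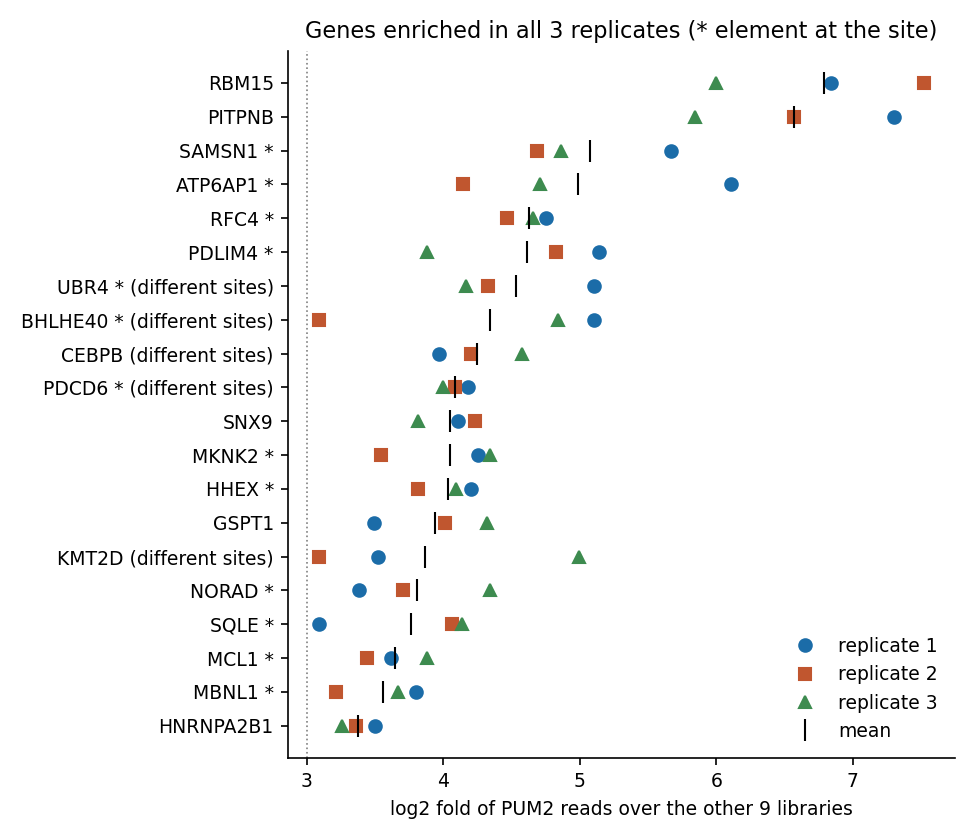
Genes enriched in all 3 PUM2 replicates, 20 of the 21 (y axis), with the log2 fold of PUM2 reads over the other 9 libraries at the best site in each replicate (x axis). The dotted line is the limit of 3, vertical bars are means, stars mark the element at the site, and RBM15 and PITPNB, without the element there, lie highest.

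Of the shared sites, 10 held the element, and those of SAMSN1, ATP6AP1, RFC4 and PDLIM4 had the highest folds. SAMSN1, an adaptor protein of blood cells, had 4, 7 and 7 PUM2 reads near the end of its 3′ UTR in replicates 1 to 3, over 9, 30 and 23 CC reads. Its log2 folds over the CC were 5.67, 4.69 and 4.86, with a mean of 5.07 ± 0.52 (SD, n = 3). Only FAM120A and IGF2BP2 had any merged peak there. ATP6AP1, an accessory subunit of the vacuolar proton pump, had 3, 4 and 3 reads in its 3′ UTR and log2 folds of 6.10, 4.14 and 4.70. RFC4, a subunit of the clamp loader of DNA replication, had 4, 4 and 5 reads in its 3′ UTR and log2 folds of 4.75, 4.47 and 4.65, a spread of 0.15 (SD). PDLIM4, a PDZ and LIM domain protein of the actin cytoskeleton, was enriched in its CDS with 4, 9 and 4 reads and log2 folds of 5.14, 4.83 and 3.88. All 4 were above a log2 fold of 3.8 in every replicate, with the folds of ATP6AP1 spread over 1.01 (SD).

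MKNK2, a kinase that phosphorylates the cap-binding factor eIF4E, had 11, 11 and 11 reads over 66, 104 and 52 CC reads. Its site lay at the boundary of CDS and 3′ UTR, and its log2 folds were 4.26, 3.55 and 4.34. HHEX, a homeobox factor of blood development, had 9, 14 and 15 reads in its 3′ UTR, with log2 folds of 4.20, 3.81 and 4.09 and 2 elements in the window. MBNL1, a splicing regulator, had 14, 19 and 13 reads in its 3′ UTR close to the stop codon, with log2 folds of 3.80, 3.22 and 3.67. These 3 sites had the most reads in replicate 1 among the sites with the element, and their folds stayed within a spread of 0.44 (SD). At the MBNL1 site all 9 other RBPs had a merged peak in at least 1 replicate.

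SQLE, the squalene epoxidase of cholesterol synthesis, had 4, 10 and 7 reads in its 3′ UTR and log2 folds of 3.09, 4.07 and 4.14. MCL1, an anti-apoptotic member of the BCL2 family, had 3, 5 and 4 reads in its 3′ UTR and log2 folds of 3.62, 3.44 and 3.88. The fold of SQLE was close to the limit in replicate 1. With 1 exact test for all replicates 16 of the 21 genes remained, and SQLE, BHLHE40, CEBPB, KMT2D and SNX9 no longer passed in all 3. The shared site of MCL1 also missed the limit by the exact test, with a lowest −log10 P of 2.62 over the replicates, while the gene still passed in all 3.

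NORAD, the noncoding RNA that binds Pumilio proteins, was the only noncoding gene among the 21. It had 2, 9 and 6 enriched peaks in replicates 1 to 3, of which 1, 6 and 5 held the element. The site shared by all 3 replicates had 3, 15 and 18 reads and log2 folds of 3.38, 3.71 and 4.34, and its window held 2 elements. By the exact test the replicate 1 peak of this site had a −log10 P of 2.43 and missed the limit, and NORAD passed there through another peak, without the element, of 6 reads and a −log10 P of 4.14.

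In 3 genes the element was at the best site of only some replicates. UBR4, an E3 ubiquitin ligase of the N-degron pathway, had 3, 4 and 3 reads and log2 folds of 5.10, 4.33 and 4.16, and its 3′ UTR site with the element was shared by replicates 1 and 2. PDCD6, a calcium-binding protein, had 3, 4 and 4 reads and log2 folds of 4.18, 4.09 and 3.99, with the element site shared by replicates 2 and 3. BHLHE40, a repressor of the basic helix-loop-helix family, had 3 reads in each replicate and log2 folds of 5.10, 3.09 and 4.84.

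The highest folds of all belonged to sites without the element. RBM15, a protein of the complex that methylates adenosine in mRNA, was enriched in its CDS with 7, 5 and 6 reads over only 7, 3 and 9 CC reads. Its log2 folds were 6.84, 7.52 and 5.99, with a mean of 6.79 ± 0.77 (SD, n = 3), and its window held no TGTA. PITPNB, a phosphatidylinositol transfer protein, was enriched in its CDS with 11, 12 and 9 reads over 8, 14 and 15 CC reads, and its log2 folds were 7.30, 6.57 and 5.84. The PITPNB window also lacked TGTA and held an unbroken run of 8 bases of the barcode and adapter described below. A separate site in the 3′ UTR of PITPNB held the element and was enriched in replicates 2 and 3, with log2 folds of 4.67 and 4.93.

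Other genes without the element at their best site were nearer the limit. CEBPB, a leucine zipper transcription factor, had 3 reads in each replicate and log2 folds of 3.97, 4.20 and 4.58. SNX9, a sorting nexin of endocytosis, had 3, 8 and 5 reads in its 3′ UTR and log2 folds of 4.10, 4.23 and 3.81, and its window held 6 copies of TGTA without the full element. GSPT1, the translation termination factor eRF3a, had 5, 7 and 9 reads in its CDS and log2 folds of 3.49, 4.01 and 4.32. KMT2D, a histone methyltransferase, had 3, 3 and 4 reads and log2 folds of 3.52, 3.09 and 4.99. HNRNPA2B1, an RBP of nascent transcripts, had 8, 23 and 12 reads in its 3′ UTR over 81, 247 and 120 CC reads and log2 folds of 3.50, 3.36 and 3.26.

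Peaks at sites that resemble the adapter were set aside above, and they made up a larger share of the enriched peaks in PUM2 than in the other RBPs. In number PUM2 was not apart. It had 50 such peaks over the 3 replicates, against 31 (IGF2BP2) to 137 (PRPF8) in the other RBPs, with 49 in DDX3 and 53 in FAM120A. PUM2 also had the fewest enriched peaks of each tube, and EIF3G had the next highest mean share, 1.58%. Whether the share follows the size of the library was not tested. The first 10 bases that follow the barcode in the study's list of oligonucleotides, with at most 1 mismatch, lay within 30 nt of 2.54%, 3.72% and 7.77% of the enriched PUM2 peaks, a mean of 4.68% ± 2.75 (SD, n = 3). The other 27 libraries had 0.155% to 1.89%, with a mean of 0.636%, all below the lowest PUM2 replicate (exact permutation, p = 0.001, adjusted p = 0.00333). The difference of 4.04 percentage points was 2.55 without replicate 3, and the PUM2 mean moved from 1.72% over the external background to 15.8% with peaks of 5 reads or more. Of the 10 PUM2 peaks with the highest fold in each replicate, 1, 6 and 5 were of this kind. A site in ULK4 had 13, 71 and 139 reads and log2 folds of 10.54, 12.94 and 10.53, and one in an intron of PDE6A had 7, 28 and 48 reads and log2 folds of 5.33, 5.22 and 6.31. Only these 2 of 28 adapter-like sites were seen in all 3 replicates, and 1 of the 50 adapter-like peaks held the Pumilio element.

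A wider class of such sites remained among the 192, 414 and 344 peaks. An exact match to 1 of the 10 barcodes followed by the first 5 bases of the adapter was near 0, 20 and 60 of them. None of these peaks held the element, 18 of the 20 and 53 of the 60 were in introns, and their median log2 fold was 8.37 and 8.16 in replicates 2 and 3, against 4.26 and 4.90 for the remaining peaks. Without them the intron share was 15.1%, 8.38% and 24.3%, and the share with the element 14.6%, 30.5% and 30.6%. All 21 recurring genes remained. Such sites were not particular to PUM2. Adapter-like and barcode sites together were 2.54%, 8.37% and 23.9% of the enriched PUM2 peaks in replicates 1 to 3. For EIF3G they were 3.44%, 5.02% and 8.67%, and for ZC3H11A 3.74%, 2.06% and 9.70%.

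Known targets of Pumilio proteins, a list of 11 genes, were described next. Of 7 with a tested PUM2 peak, 6 were enriched in at least 1 replicate, 4 in at least 2 and 1, NORAD, in all 3. Of all 1291 tested genes, 47.5% were enriched in at least 1 replicate, 8.21% in at least 2 and 1.63% in all 3. CDKN1B, an inhibitor of cyclin-dependent kinases, was enriched in its 3′ UTR in replicates 2 and 3 at different sites, with 3 reads each. Its log2 folds were 3.67 and 5.16, with the element at both sites. By the exact test the replicate 2 peak had a −log10 P of 2.65 and missed the limit. PUM2's own mRNA was enriched in its 3′ UTR at a site with the element in replicates 2 and 3, with 5 and 3 reads and log2 folds of 4.47 and 4.46. E2F3, a factor of the cell cycle, had 2 peaks in replicate 2 with log2 folds of 5.20 and 5.33, and neither held the full element.

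Genes of mitosis and DNA replication, a list of 25, had tested PUM2 peaks in 9, of which 5 were enriched in at least 1 replicate and 3 in at least 2. PCNA, the sliding clamp of DNA replication, had 12 and 5 reads in replicates 2 and 3 and log2 folds of 4.73 and 5.58. SMC3, a subunit of cohesin, had 3 and 6 reads and log2 folds of 5.37 and 6.36 in the same replicates. CCNB2, a mitotic cyclin, had 4 reads in both and log2 folds of 5.20 and 5.26 at its 3′ UTR site. CDK1, the kinase bound by mitotic cyclins, had 9 reads at a log2 fold of 4.43 in replicate 2 only, and BUB3, of the spindle checkpoint, 5 reads and 4.44 in replicate 3 only. All of these 3′ UTR sites held the element, and none was enriched in replicate 1. Of all tested genes 47.5% were enriched in at least 1 replicate, and 5 of 9 is close to that share.

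The other lists had few tested members. Among 10 Pumilio proteins and partners, 3 had a tested peak, of which 2, PUM2 among them, were enriched. Of 17 genes of the CCR4-NOT complex and its adaptors, only BTG1, an antiproliferative adaptor, had a tested peak, enriched in replicate 2 at 3 reads, with 5.20 as its log2 fold. Of the mRNAs of the 10 profiled RBPs, only that of PUM2 had a tested peak.

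The 2 PUM2 libraries of 10plex ABC in HEK293T cells, a human embryonic kidney line, are given side by side. They had 445 of 1669 and 449 of 2637 peaks enriched over the CC. The 1669 and 2637 include 243 and 381 peaks whose reads could not be recovered and which could not be called. Apart from adapter-like sites, 11.6% and 20.1% of the enriched peaks held the element, and 37.5% and 41.7% of those in 3′ UTRs. Of the 613 K562 genes, 131 were among the 644 HEK293T genes (21.4% of the K562 and 20.3% of the HEK293T list). Of the 21 recurring genes 9 were enriched in HEK293T, and NORAD, PDCD6, RBM15 and PITPNB in both HEK293T replicates.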

How the data were processed

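Members, gene lists and tests were chosen with earlier results of these data known. The authors trimmed reads with cutadapt 2.8, aligned them to GRCh38 with STAR 2.7.6, collapsed PCR duplicates and ran CLIPper. Their deposited peaks carry a p-value and a display score, and merged peaks a −log10 P (at most 400) and a log2 fold over an external background. Against the CC, the authors deposited chi-squared values for replicates 1 and 2, with repeats removed. For replicate 3 they deposited −log10 P and log2 folds, where small numbers had an exact test and repeats were kept.

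Reads were recovered as the whole numbers behind each fold, and equalled those in the authors' peak names for 96.9% and 97.7% of the PUM2 peaks of replicates 1 and 3. CC reads of replicates 1 and 2 were solved from the chi-squared statistic, which whole numbers gave for 99.7% and 98.8% of the PUM2 peaks. Tested on data simulated from 1283 PUM2 peaks of replicate 3, 100% of enriched peaks were recovered. Of the calls, 20.3% were not calls by the exact P, so replicates 1 and 2 had the more lenient test. Whether a peak lay above or below the CC was decided from recovered reads of the other libraries. FAM120A, 36.8% of the replicate 2 tube, had 57.3% of its peaks recovered there, against 99.9% in replicate 3. RBFOX2 had 39.4% and 8.00% in HEK293T. The simulation does not cover these losses.

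Regions came from GENCODE 44 (the authors used 35). Named genes were those enriched in all 3 replicates outside adapter-like sites, and list members enriched in at least 1. Shares were tested with two-sided exact permutations of RBP labels within replicates and adjusted by the Benjamini-Hochberg method over 10 tests, at a threshold of 0.05, with Python 3.11.15, numpy 2.4.6, pandas 2.3.3, scipy 1.17.1 and bedtools 2.31.1. Alternatives were the limits, background, window, motif, region, adapter-like sites, the replicate block and each replicate left out. An exact test for all replicates, peaks of 5 reads or more, barcode sites left out and touching peaks counted once were chosen after seeing the data. eCLIP and singleplex samples were not analysed here, and a few genes are not reported here.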

Additional observations from a re-analysis of the deposited data

How the results depend on the processing

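The share of PUM2 peaks with the element and that within 3′ UTRs exceeded the other 9 RBPs with an adjusted p below 0.05 under every alternative run, with differences of 8.54 to 43.9 and of 27.5 to 46.3 percentage points. Without the replicate block, where 3 of the 30 libraries were drawn freely, the difference of 21.5 points in the element share had adjusted p = 0.000821 by exact permutation, and no call changed. The replicate number marks 1 tube, which the 10 libraries of a replicate share. The difference in noncoding exons lost its call in the exact permutation with P below 1e-05 and fold above 16 (0.884 points, adjusted p = 0.543) and with barcode and adapter sites left out too (1.25 points, adjusted p = 0.0540), and ran from 0.835 to 2.31 with 1 replicate left out. It was larger, with its call kept, with any fold above 1 (19.97 points), over the external background (22.3) and with 5 reads or more (7.17), against 1.44 as reported. The adapter-like difference kept its call under all 12 alternatives, with 1.29 to 14.8 points. Its PUM2 mean was 1.72% over the external background, 2.05% with no mismatch, 9.03% with the stricter limits and 15.8% with 5 reads or more. The reversed letters ran from 1.72 to 2.08 points when 1 replicate was left out, and without replicate 2 or 3 the exact permutation gave adjusted p = 0.05, no longer below the threshold. With the stricter limits the intron share turned to 2.04 points above the other RBPs and the 3′ UTR position to 0.0319 above them. With 1 replicate left out, the position ran from -0.0460 to 0.00634, the last without replicate 3. Neither of these passed the test under any setting.

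The mean number of enriched PUM2 peaks was 171 with the stricter limits, 1224 over the external background and 68.0 with peaks of 5 reads or more. Genes enriched in all 3 replicates numbered 5 with the stricter limits, 49 with any fold above 1, 296 over the external background and 9 with 5 reads or more. They numbered 16 with 1 exact test for all replicates, which lost BHLHE40, CEBPB, KMT2D, SNX9 and SQLE. Genes in both remaining replicates numbered 32 to 72 with 1 replicate left out, 72 without replicate 1, 32 without replicate 2 and 44 without replicate 3. The cause of these changes was not tested, beyond the smaller or larger number of peaks that each limit admits.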

Other observations

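Sites with the element that were enriched in 2 of the 3 replicates add genes that were not described above, chosen here after their values were seen. ZMIZ1, a transcriptional coregulator, had the highest mean log2 fold among them, with 6.43 and 5.58 in replicates 1 and 3 and 3 and 4 reads. SNRPB, a core protein of the spliceosomal snRNPs, had 5.47 and 6.16 in replicates 2 and 3 with 12 and 3 reads. CLK2, a kinase of splicing factors, had 5.20 and 6.13 with 4 and 11 reads. SLC38A2, a transporter of neutral amino acids, had the most reads, 34 and 16, and log2 folds of 3.10 and 3.62. SLBP, the protein that binds the stem-loop of histone mRNAs, had 3.20 and 4.82 with 5 and 8 reads. All of these sites were in 3′ UTRs, while HCG11, a noncoding RNA, was enriched in an exon with 5.03 and 5.12 and 8 and 4 reads.

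The barcode in front of adapter-like sites differed between the libraries. Of the 50 adapter-like PUM2 peaks, 18 followed TTAGG, a barcode that stands in the row of DDX3 in the study's list of oligonucleotides, and 0 followed the barcode in the row of PUM2. With the first 5 bases of the adapter, the same barcode was in front of 25 of 27 and 73 of 75 PUM2 peaks in replicates 2 and 3. In each of the other 9 libraries the adapter-like peaks that followed a barcode followed a single one too, and only FAM120A had the barcode of its own row. Whether the rows of that list pair antibodies with barcodes was not tested. Unbroken runs of at least 8 bases of this barcode and adapter were near 1.04%, 6.28% and 19.2% of the enriched PUM2 peaks that were not adapter-like, against 0.195%, 0.451% and 0.219% of the tested peaks that were not enriched.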
